A study of Mus musculus with 22 samples.

Results

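Eμ-Myc mice carry a Myc transgene driven by the enhancer of the immunoglobulin heavy chain locus and develop B cell lymphoma. Of 13 lymphomas from such mice, 7 gave a strong signal for Bpifa2, the gene of parotid secretory protein, and 6 gave none. The sets were chosen by the measured Bpifa2 values themselves: a lymphoma belongs to the first set when the only Bpifa2 probe set on the array has a log2 intensity above 4, a level taken here as the floor of detection. The 7 lymphomas with Bpifa2 signal are replicates 1, 2, 3, 4, 6, 7 and 13, and the 6 without it are replicates 5, 8, 9, 10, 11 and 12. The remaining 9 of the 22 arrays hold 5 premalignant samples of B220+ cells from Eμ-Myc transgenic mice and 4 samples of wild type B220+ cells. All mice were on the C57Bl/6 background. The sample labels give an age of 4 to 6 weeks for every array, whereas the design text gives that age for the wild type and precancerous littermates and gives none for the lymphomas. B cells were purified on magnetic beads against B220 or IgM, and the tissue is labelled as bone marrow or spleen for every array, without saying which. The sources used here do not name the site from which a lymphoma was taken. Each lymphoma came from its own mouse and was measured on 1 MOE430A array, so the number of arrays limits the precision. The question put to the data was whether the lymphomas that differ in Bpifa2 also differ in any other gene.

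Saliva is made by acinar cells, which load secretory granules with a few very abundant proteins, and is modified by duct cells. Bpifa2 and the amylase Amy1 are classic products of the mouse parotid gland, and Smr3a and the Dcpp genes encode secreted proteins of the salivary glands. B cells are not known as a source of any of them. Amy1 is known to be transcribed from a strong promoter in the parotid gland and from a weaker one in liver and other tissues, and the probe set used here does not tell the transcripts of its starts apart.

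The 4 genes detected on all 7 arrays and on no other array lie on 4 different chromosomes, and the 100 bases before their transcription starts are shown so that their sequences can be set side by side. The sequences are those of RefSeq on GRCm38.p6 and are written 5′ to 3′ on the strand of the gene, and capitals mark TATAA or its reverse complement TTATA. The windows are chr2:154008176-154008275 on the plus strand for Bpifa2, chr3:113577751-113577850 and chr3:113574763-113574862 on the minus strand for both starts of Amy1, chr5:88002425-88002524 on the plus strand for Smr3a and chr17:23917358-23917457 on the plus strand for Dcpp3.
Bpifa2: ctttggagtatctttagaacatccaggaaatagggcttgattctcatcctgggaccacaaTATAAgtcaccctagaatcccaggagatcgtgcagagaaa
Amy1, upstream start: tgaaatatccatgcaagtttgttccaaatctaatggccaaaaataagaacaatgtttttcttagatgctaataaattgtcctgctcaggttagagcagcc
Amy1, downstream start: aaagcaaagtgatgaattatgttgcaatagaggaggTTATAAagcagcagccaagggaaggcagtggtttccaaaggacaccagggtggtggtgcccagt
Smr3a: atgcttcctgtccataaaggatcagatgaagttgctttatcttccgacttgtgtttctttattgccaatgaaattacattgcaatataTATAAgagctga
Dcpp3: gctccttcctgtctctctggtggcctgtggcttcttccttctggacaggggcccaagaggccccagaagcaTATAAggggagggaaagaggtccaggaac
On the strand of the gene, TATAA began 40 bases before the start of Bpifa2, 29 before that of Dcpp3, 12 before that of Smr3a and 63 before the downstream start of Amy1, and the window of the upstream Amy1 start did not hold it. The motif was chosen after the sequences had been seen, and 10.2% of 32851 windows of the same length hold it on either strand, 7.48% on the strand of the gene. A match is a description of the letters only.

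Bpifa2 had log2 intensities of 11.64, 9.92, 9.36, 12.79, 12.24, 9.98 and 12.54 in the lymphomas with Bpifa2 signal, against 2.38, 2.38, 2.51, 2.44, 2.43 and 2.44 in those without. The lowest member of the first set, replicate 3, stood at 9.36 and the highest lymphoma outside it, replicate 9, at 2.51, so no array lay near the threshold, and the highest premalignant and wild type arrays stood at 2.52 and 2.49. The means were 11.21 ± 1.4 (SD, n = 7) and 2.43 ± 0.048 (SD, n = 6), which is at least 148-fold when a mean below log2 4 is set to 4. These values chose the sets and carry no test. In a bulk sample, fewer cells of a type and less RNA per cell cannot be told apart.

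**Figure D1:**
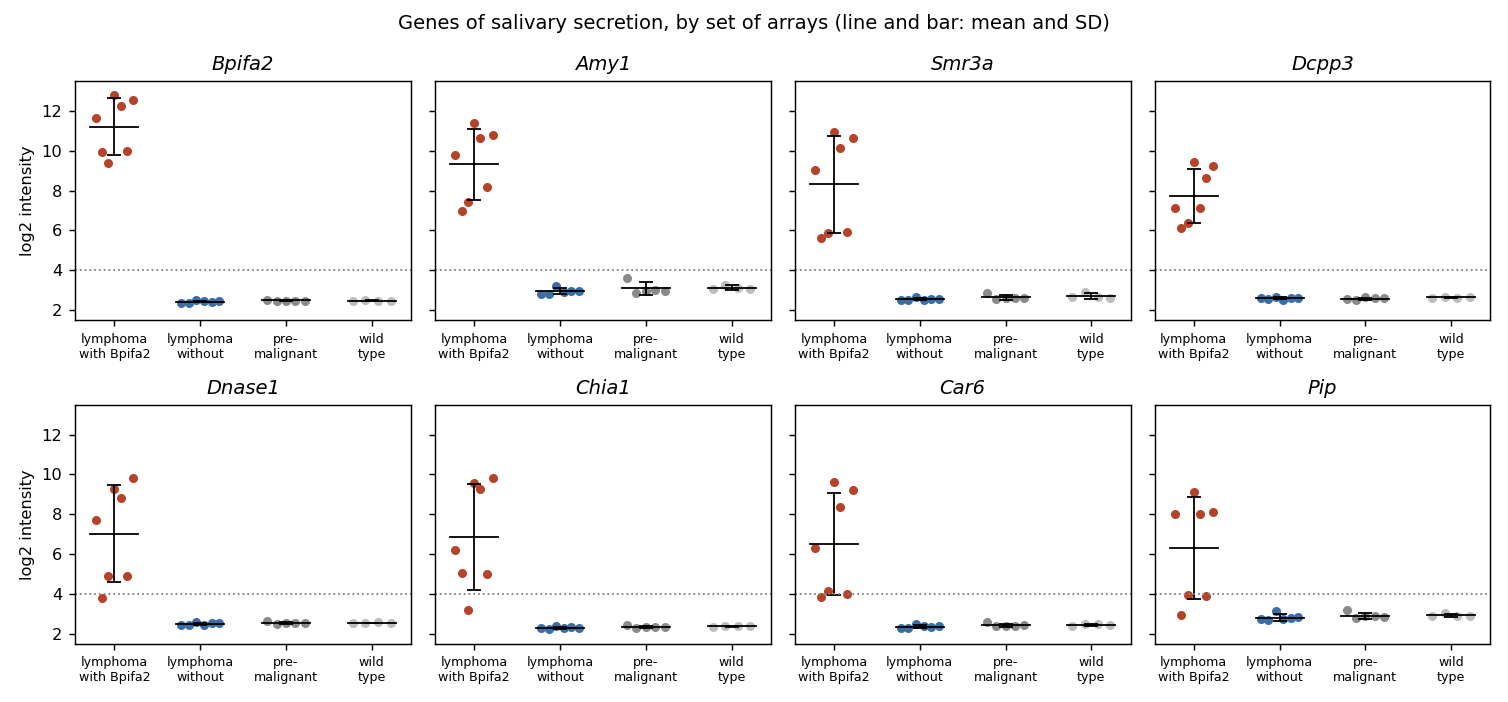
Log2 intensity of 8 genes on each of the 22 arrays, by set. Points are arrays, horizontal lines are means, error bars are SD, and the dotted line is log2 4. Bpifa2, Amy1, Smr3a and Dcpp3 lay above the dotted line on all 7 lymphoma arrays of the first set and on no other array, and the 4 genes of the lower panels lay above it on 4 to 6 of the 7.

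Amy1, the salivary amylase, split the lymphomas into the same sets. It had log2 intensities of 9.77, 6.97, 7.42, 11.41, 10.63, 8.20 and 10.80 in the lymphomas with Bpifa2 signal, against 2.80, 2.79, 3.19, 2.89, 2.97 and 2.98 in those without. The means, 9.31 ± 1.8 (SD, n = 7) and 2.94 ± 0.15 (SD, n = 6), lie at least 39.8-fold apart, and the sets did not overlap. Amy1 is nearly identical in sequence to the other amylase genes, so the signal of this probe set may not be that of Amy1 alone.

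Smr3a, which encodes a submaxillary gland androgen-regulated protein, had log2 intensities of 9.01, 5.61, 5.86, 10.96, 10.15, 5.91 and 10.65 in the lymphomas with Bpifa2 signal, against 2.50, 2.49, 2.66, 2.53, 2.58 and 2.57 in those without. The means of 8.31 ± 2.4 (SD, n = 7) and 2.55 ± 0.062 (SD, n = 6) are at least 19.8-fold apart, again with no overlap. Within the first set Smr3a covered a 40.6-fold range and Bpifa2 a 10.8-fold range. Dcpp3, a demilune cell and parotid protein gene of a family of close copies that this probe set may not resolve, had log2 intensities of 7.10, 6.13, 6.37, 9.41, 7.13, 8.65 and 9.23 in the first set, against 2.51 to 2.64 in the second. Its means were 7.72 ± 1.4 (SD, n = 7) and 2.59 ± 0.050 (SD, n = 6), at least 13.1-fold apart. On the 9 premalignant and wild type arrays Amy1 reached 3.62, Smr3a 2.93 and Dcpp3 2.65, all below the floor.

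These 4 genes were the only ones of 12393 on the array (0.0323%) above log2 4 on all 7 arrays and on none of the other 15, and 27 genes (0.218%) were above 4 on at least 3 of the 7 and on none of the other 15. Dnase1, which encodes a secreted nuclease abundant in the parotid gland, and Chia1, the gene of an acidic chitinase, came next, each above 4 on 6 of the 7 arrays. Neither is in the lists of salivary genes used here. Dnase1 had log2 intensities of 7.73, 3.79, 4.91, 9.27, 8.80, 4.88 and 9.82 in the lymphomas with Bpifa2 signal, against 2.43 to 2.59 in those without, and a mean at least 8.15-fold higher. Chia1 had 6.20, 5.05, 3.20, 9.57, 9.26, 5.02 and 9.80, against 2.23 to 2.37, and a mean at least 7.32-fold higher.

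Car6, the secreted carbonic anhydrase of saliva, had log2 intensities of 6.31, 3.85, 4.14, 9.62, 8.37, 4.00 and 9.24 in the lymphomas with Bpifa2 signal, against 2.28 to 2.49 in those without. The first set thus holds 4 arrays with clear Car6 signal and 3 at or near the floor. Pip, which encodes the prolactin-induced protein of secretory glands, has 2 probe sets, 1 of which stayed below the floor on every array, with a maximum of 3.03. The other, used here, showed the same division, with 8.03, 9.13, 8.01 and 8.11 on replicates 1, 4, 6 and 13 and 2.95, 3.97 and 3.88 on replicates 2, 3 and 7, against 2.67 to 3.12 in the lymphomas without Bpifa2 signal. The unnamed gene 2310057J18Rik had 7.64, 7.94, 7.79 and 8.91 on the same 4 arrays and 3.31, 3.51 and 4.97 on the other 3. Cst10, a cystatin gene, had 4.20, 6.67, 7.64 and 7.98 on those 4 arrays and 2.15, 2.09 and 3.94 on the other 3, and Wfdc12 was highest on replicate 4, at 8.36.

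The amount of salivary signal differed between arrays of the first set. For Bpifa2, Amy1, Smr3a, Dnase1, Chia1, Car6, Pip, 2310057J18Rik, Cst10, Wfdc12 and the duct gene Klk1, 11 of the 15 genes whose order was compared, the 4 highest arrays were replicates 1, 4, 6 and 13, in orders that differed between genes. Bpifa2 lay between 11.64 and 12.79 on replicates 1, 4, 6 and 13 and between 9.36 and 9.98 on replicates 2, 3 and 7. Within the first 4, Bpifa2, Amy1, Smr3a and Car6 gave 1 order, replicate 4 over 13 over 6 over 1, while Dnase1, Chia1 and 2310057J18Rik were highest on replicate 13. Within the other 3, replicate 7 was highest for Bpifa2, Amy1 and Smr3a, and replicate 2 lay above replicate 3 for Bpifa2 and below it for Amy1 and Smr3a. With clusters of 4 and 3 arrays, no correlation was tested within either.

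By Pearson correlation with Bpifa2 over the 13 lymphomas, the most similar genes were Amy1 (r = 0.987), Dcpp3 (0.964), Smr3a (0.953), Dnase1 (0.909), Chia1 (0.895), 2310057J18Rik (0.889), Car6 (0.881), Atp6ap1 (0.873), Pip (0.834) and Zfp746 (0.825). These values have no test, since the 13 arrays fall into separated sets that share the split. Over the 7 arrays of the first set alone, Amy1, Smr3a, Dnase1, Chia1, 2310057J18Rik, Car6 and Pip had r between 0.956 and 0.988, Atp6ap1 0.693 and Dcpp3 0.624. Zfp746 had an r of -0.125 there. Replicate 7, among the lower 3 arrays for Bpifa2, was the third highest for Dcpp3, at 8.65.

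**Figure D2:**
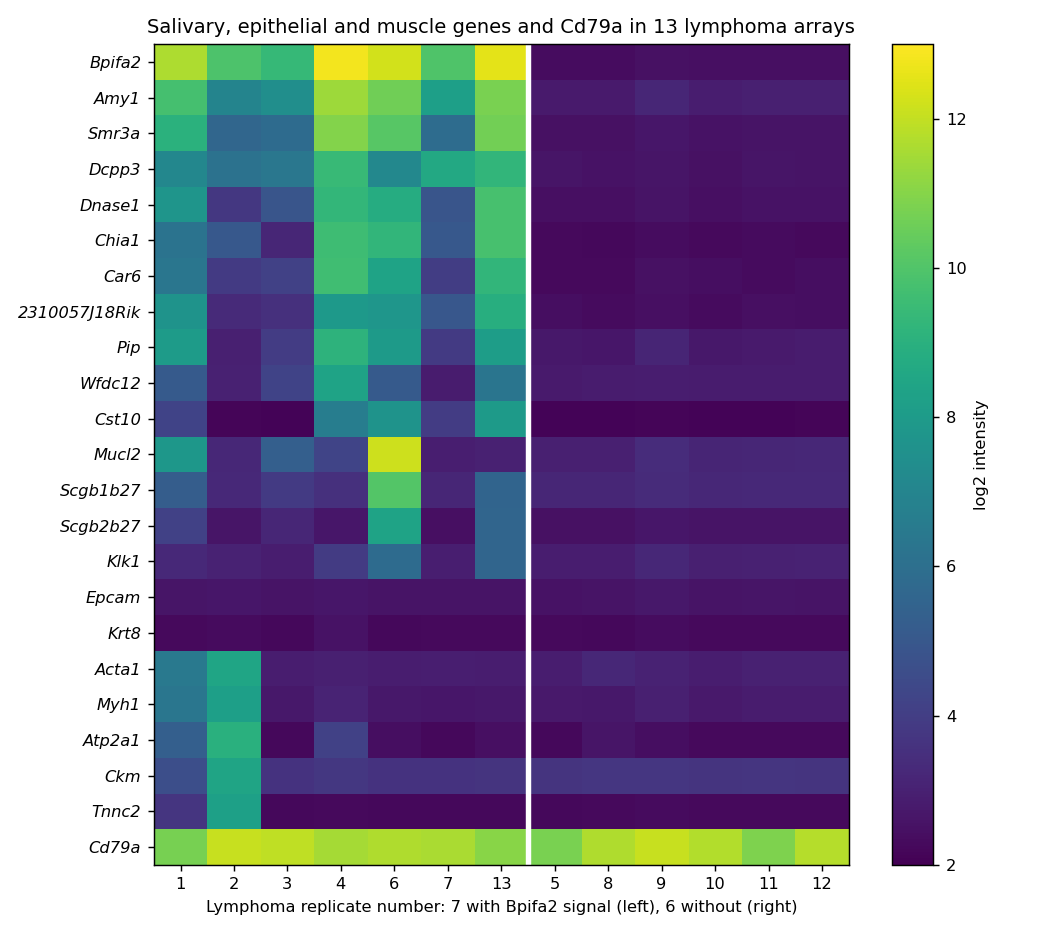
Log2 intensity of salivary, epithelial and muscle genes and of Cd79a, a B cell receptor subunit, in each of the 13 lymphomas. Columns are arrays by replicate number, with the 7 lymphomas with Bpifa2 signal left of the white line, and colour gives log2 intensity. Salivary rows are bright on the left only, muscle rows are bright on replicates 1 and 2, and Cd79a is bright on all 13.

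A further group of salivary genes ranked the arrays differently. Mucl2, a mucin-like gene, had log2 intensities of 7.84, 3.23, 5.33, 4.25, 12.17, 2.91 and 3.02 in the lymphomas with Bpifa2 signal, against 2.97 to 3.38 in those without. Replicate 13, the second highest for Bpifa2, was at the floor for Mucl2, and the range within the first set was 288-fold with values below 4 set to 4. Scgb1b27 and Scgb2b27, which encode subunits of the androgen-binding protein of saliva, were highest on replicate 6 as well, at 10.04 and 8.37. Their next highest array was replicate 13, at 5.54 and 5.60. Klk1, a kallikrein gene of duct cells, had 5.85 on replicate 6 and 5.57 on replicate 13, and no more than 3.92 on the other 5 arrays of the set. Prol1 was seen on replicate 6 by both of its probe sets, at 8.66 and 5.47, and by 1 of them on replicate 1, at 4.23. Dcpp1 exceeded 4 on replicate 3 alone, at 4.69.

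Not all salivary genes followed. The lists hold 77 genes of salivary secretion, ducts and acinar regulation, of which 61 had a probe set with 1 gene symbol. Of these 61, 14 exceeded log2 4 on at least 1 of the 7 arrays and on none of the other 15, 32 stayed at or below 4 on all 22 arrays, and 16 were measured well enough for the fit across genes besides Bpifa2 itself. The share of all genes on the array that meet the first of these rules was not counted, so the 14 are a description only. Aqp5, the water channel of acinar cells, Ano1, their chloride channel, Egf, Lpo, Dmbt1, Bpifa1 and Bpifb1 were below 4 on all 13 lymphomas. Below that floor, Lpo had 3.13 and 2.96 on replicates 4 and 13, against at most 2.33 on the other 15 arrays. Aqp5 had 3.28 on replicate 4, against at most 2.44. Wfdc18 had 2.66 to 3.66 in the lymphomas with Bpifa2 signal, against at most 2.55. Ano1, Dmbt1, Bpifa1 and Bpifb1 showed no such rise. The floor thus cannot decide whether a gene below it moved with the split. In the fit with limma across 6055 genes, of which 0.0495% passed, 3 of 11 secreted proteins passed, 0 of 2 of the duct list and 0 of 3 of the acinar list. The 3 exceeded 4 on none of the other 15 arrays, so they were tested only through the set where they are high and their count supports nothing. On 1 of its 3 probe sets, Smr2 had 4.60 to 5.18 in the lymphomas with Bpifa2 signal and 4.75 to 5.22 in those without. Its other probe sets reached at most 2.87 on any array. Lyz1 had 9.96 to 12.85 and 9.39 to 11.50 on the probe set used, and lysozyme is also a product of macrophages. Another Lyz1 probe set had 7.72 to 10.91 in the first set, while the last had 2.49 to 2.77 there and at most 2.97 on the other 15 arrays. Which of them measures Lyz1 was not tested. Xbp1, a transcription factor of secretory cells including plasma cells, had 8.01, 7.67, 8.10, 6.97, 8.03, 7.62 and 7.71, against 7.13, 6.98, 6.60, 7.30, 7.22 and 6.93, with means of 7.73 ± 0.39 (SD, n = 7) and 7.03 ± 0.25 (SD, n = 6) and an overlap through replicate 4.

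Across all genes, few passed. Of 6055 genes tested with limma, 3 passed an adjusted p of 0.05 (0.0495% of all tested), and these were Amy1, Smr3a and Dcpp3, all higher in the lymphomas with Bpifa2 signal. Since these genes were named with the split in view, and entered the fit only through the lymphomas with Bpifa2 signal, this count describes what the split chose. Amy1 and Dcpp3 passed in all 13 fits that left out 1 array. Smr3a passed in 4 of them and lost its call without replicate 1, 5, 6, 8, 9, 10, 11, 12 or 13, with adjusted p of up to 0.102. Among the 6039 tested genes outside the salivary lists, 0 passed, and the smallest adjusted p was 0.201. At an unadjusted p under 0.05, 370 of them (6.13%, against 6.28% of all genes tested) differed, 187 higher and 183 lower in the lymphomas with Bpifa2 signal. This count was 241 without replicate 3 and 631 without replicate 4. The 95% confidence interval of the difference lay within 2-fold in either direction for 5255 of the 6039 genes (87.0%), so that for most genes a larger difference between the means is outside the interval. For 3 genes it lay wholly beyond 2-fold, and these were Dnase1, Chia1 and Nt5dc2. In simulated data of the same size and spread with 200 changed genes, 68% of genes changed 2-fold and 94% of those changed 4-fold were recovered. Recovery after adjustment depends on how many genes change, so these shares need not hold where few do. Whether they hold for the measured genes, which may vary together or lie near the floor, was not tested. Mean correlations over genes were 0.926 between arrays of the first set, 0.935 between arrays of the second and 0.927 between the sets.

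**Figure D3:**
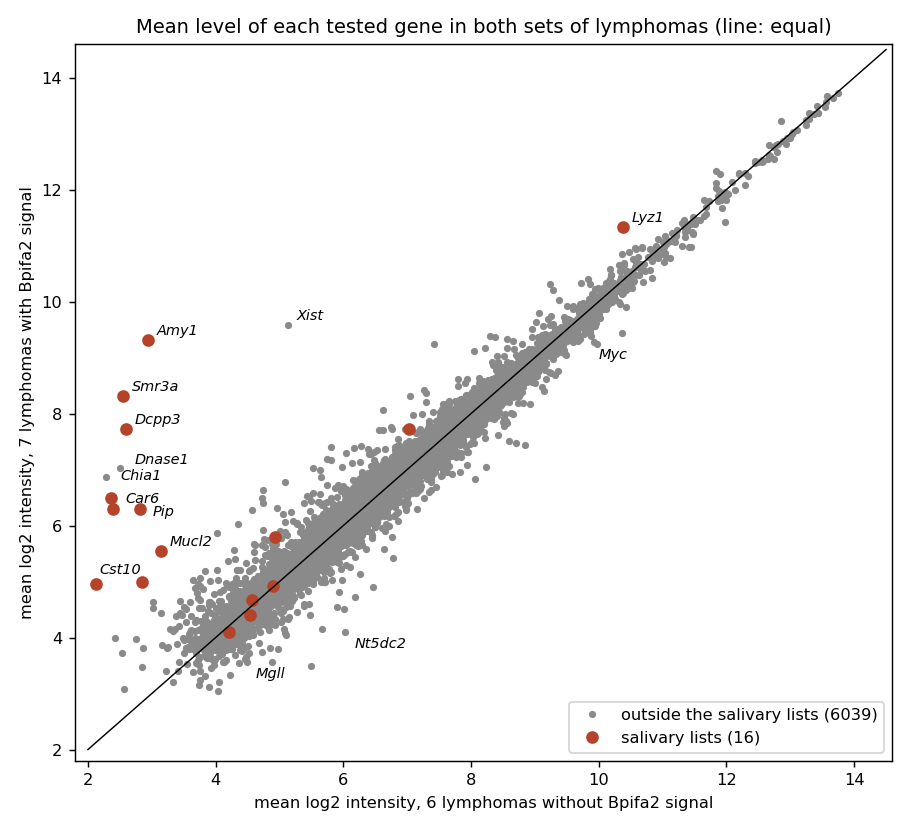
Mean log2 intensity of each of 6055 genes over the 7 lymphomas with Bpifa2 signal (vertical axis) and the 6 without (horizontal axis). Points are genes, red points are members of the salivary lists, and the line marks equal means. Amy1, Smr3a, Dcpp3, Dnase1, Chia1, Car6 and Pip stand far above the line, and Myc lies close to it.

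The fit gave Dnase1 a log2 difference of 4.53 (SE 0.89, 95% interval 2.62 to 6.45, limma adjusted p = 0.201) and Chia1 one of 4.58 (SE 0.97, 2.51 to 6.65, adjusted p = 0.278). Neither passed, and their levels did not overlap between the sets. Both genes entered the fit only through the lymphomas with Bpifa2 signal, since neither exceeded 4 on any of the other 15 arrays, so a difference in this direction was built into the choice of genes. The adjusted p fell below 0.05 for Dnase1 only without replicate 2, at 0.0316, and for Chia1 only without replicate 3, at 0.0398, among the fits that left out 1 array. Each of these arrays is the gene's own lowest of the set, so these values add no support.

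The other genes described here differed by less, and none passed. Zfp746 had log2 intensities of 5.61, 6.19, 5.61, 5.63, 5.77, 5.68 and 5.91 in the lymphomas with Bpifa2 signal, against 5.20, 5.45, 4.66, 4.98, 5.01 and 4.90 in those without. The arrays did not overlap, and the difference was 0.74 (SE 0.14, 95% interval 0.43 to 1.04, limma adjusted p = 0.201). Peli1, which encodes a ubiquitin ligase of immune receptor signalling, had 6.79, 6.28, 6.69, 6.02, 6.41, 6.69 and 6.06, against 5.84, 5.67, 5.49, 5.08, 5.84 and 5.81, again without overlap, and a difference of 0.80 (0.43 to 1.16, adjusted p = 0.278). These are values of 1 of its 2 probe sets, and on the mean of both the difference was 0.50 (limma adjusted p = 0.706). Mbp, known for myelin and also transcribed in blood cells, averaged 4.82 ± 0.28 (SD, n = 7) and 4.07 ± 0.37 (SD, n = 6), a difference of 0.75 (0.37 to 1.13, adjusted p = 0.397). Emid1, named here after its value was seen, averaged 7.71 ± 0.48 (SD, n = 7) and 6.56 ± 0.59 (SD, n = 6) and overlapped between the sets, with a difference of 1.15 (0.57 to 1.74, adjusted p = 0.397). Atp6ap1, an accessory subunit of the vacuolar proton pump, averaged 7.42 ± 0.074 and 7.03 ± 0.17, a difference of 0.39 (0.18 to 0.61, adjusted p = 0.587). Its lowest value in the first set was 7.28 and its highest in the second 7.26. Zfp746, Peli1 and Atp6ap1 were picked by small p or by correlation with Bpifa2, so their lack of overlap adds no support. The share of all tested genes without overlap was not counted.

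In the other direction, Nt5dc2 had log2 intensities of 4.52, 5.33, 3.17, 5.48, 3.48, 2.93 and 3.83 in the lymphomas with Bpifa2 signal, against 6.31, 5.54, 6.38, 5.16, 6.47 and 6.30 in those without, a difference of -1.92 (SE 0.42, 95% interval -2.82 to -1.03, limma adjusted p = 0.278). The sets overlapped through replicate 10, the lowest of the second set. Mgll, the monoacylglycerol lipase gene, had 3.65, 3.48, 3.55, 3.88, 3.16, 3.81 and 3.38, all below the floor, against 4.95, 4.51, 4.66, 3.51, 5.01 and 4.28, a difference of -0.93 (-1.39 to -0.46, adjusted p = 0.397). Mgll exceeded 4 on 5 arrays of the second set and on no other array, so it too entered the fit through 1 set alone. Without replicate 10, the array of that set below 4, the adjusted p was 0.0232, which adds no support. Ahcyl2, Sars2, which encodes the mitochondrial seryl-tRNA synthetase, and Acsf3, which encodes an acyl-CoA synthetase, differed by -0.47, -0.51 and -0.54, with adjusted p of 0.587, 0.587 and 0.625.

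**Figure D4:**
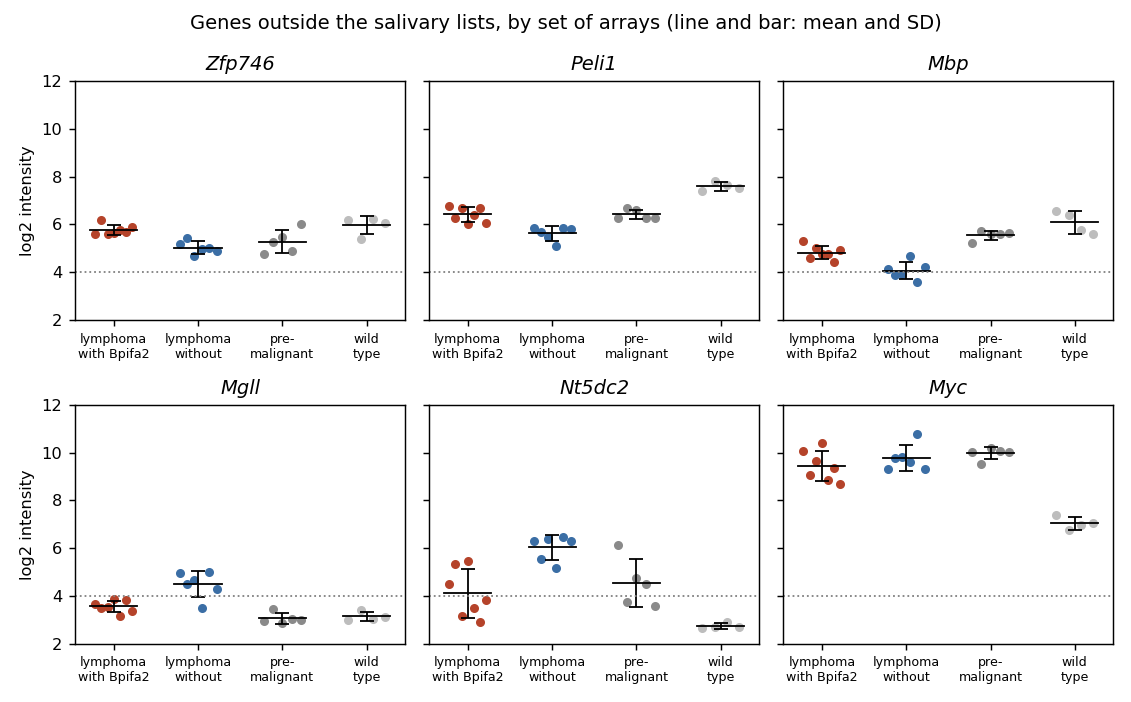
Log2 intensity of 5 genes outside the salivary lists with small p, and of Myc, on each of the 22 arrays, by set. Points are arrays, horizontal lines are means, error bars are SD, and the dotted line is log2 4. The sets of lymphomas are adjacent or overlap for every gene shown, in contrast to the salivary genes.

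Myc, the driver of the model, had log2 intensities of 10.05, 9.06, 9.63, 10.40, 8.85, 9.35 and 8.67 in the lymphomas with Bpifa2 signal, against 9.31, 9.79, 9.83, 9.62, 10.76 and 9.31 in those without. The means were 9.43 ± 0.64 (SD, n = 7) and 9.77 ± 0.53 (SD, n = 6), and the difference of -0.34 had an exact two-sided permutation p of 0.323 over 1716 splits, which could have given a p as small as 0.0012. Its 95% interval in the limma fit ran from -0.99 to 0.31. Of the 8 tested genes of the Myc network, 0 passed, with a median difference of -0.11, where the median of all tested genes was -0.01. All 28 tested genes of ribosome biogenesis, a process that Myc is known to drive, had intervals within 2-fold, with a median difference of -0.14 and 0 passing. The same held for all 27 genes of DNA replication and mitosis, with a median of -0.10.

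Among genes of the B cell itself 0 passed, while the differences were not all small. Cd79a, a signalling subunit of the B cell receptor, averaged 11.51 ± 0.48 (SD, n = 7) in the lymphomas with Bpifa2 signal and 11.48 ± 0.53 (SD, n = 6) in those without, a difference of 0.03 (95% interval -0.52 to 0.59). Of 14 tested genes of mature B cells, 11 of pro-B and pre-B cells, 9 of MHC class II and 15 B lineage transcription factors, 0 passed, with median differences of -0.03, 0.73, 0.29 and 0.34. The intervals of many of these genes were wide, and the arrays of each set differed widely among themselves. Igll1, which encodes a subunit of the surrogate light chain of pre-B cells, reached 12.22 on replicate 1 and 7.21 on replicate 7 of the first set and 8.60 on replicate 10 of the second, and its difference of 0.94 had an interval from -1.90 to 3.77. Rag1, needed for immunoglobulin gene rearrangement, exceeded 5 on replicates 2, 3, 6 and 7 of the first set, at 5.93, 8.65, 8.68 and 8.97, and on replicate 10 of the second, at 8.09.

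Genes of protein folding and export, which B cells and gland cells share, differed little. Of 32 tested genes of folding and secretion in the endoplasmic reticulum, 0 passed, 30 had an interval within 2-fold, and the median difference was 0.10. Of 9 tested plasma cell genes 0 passed, with a median of 0.52. The 11 tested p53 targets and cyclin-dependent kinase inhibitors, 7 interferon response genes and 9 immediate early genes also gave 0, with medians of 0.11, 0.03 and 0.16.

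**Figure D5:**
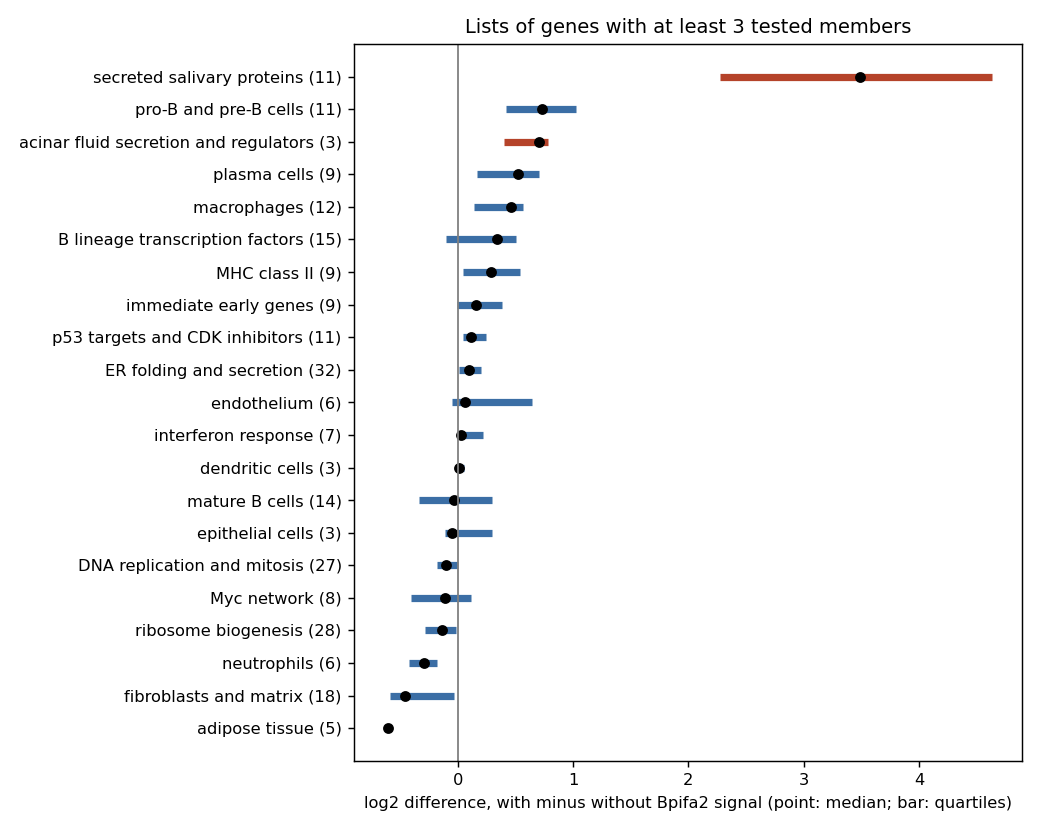
Log2 differences, lymphomas with minus without Bpifa2 signal, for lists with at least 3 tested genes (number tested in parentheses). Points are medians over the tested genes and bars run between the quartiles, in red for salivary lists and in blue for all others. The secreted salivary proteins have a median of 3.49, and every other list has a median between -0.61 and 0.73. Apart from Smr2 and Lyz1, the tested secreted genes exceed the floor of detection only on lymphomas with Bpifa2 signal. They entered the fit only through that set, so a high median was built into the choice of genes. The contrast with the other lists therefore adds no support.

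Markers of other cells and tissues were read for the same arrays. Of 24 epithelial genes on the array, 18 were below log2 4 on all 13 lymphomas, among them Epcam, Cdh1, Krt8 and Krt19, which define epithelial cells. The other 6 exceeded 4 on at least 1 lymphoma. Cldn10, a tight junction gene, and Dsp, the desmoplakin gene, did so in the first set only, Cldn10 on replicate 1 at 6.51 and Dsp on replicate 4 at 4.20. Krt18 exceeded 4 on replicate 4 of the first set, at 4.97, and on replicate 11 of the second, at 4.78. Grhl2, Spint2 and Pkp3 exceeded 4 in both sets and were tested, and 0 of the 3 passed, with a median difference of -0.05. The summed linear intensity of the epithelial list was 213 to 288 in the lymphomas with Bpifa2 signal and 188 to 248 in those without. That of the secreted salivary list was 2871 to 20379 and 929 to 3125. The Lyz1 probe set of highest mean, which another Lyz1 probe set did not bear out, made up 7.72% to 83.2% of it in the first set and 72.0% to 92.7% in the second. Without Lyz1 the sums were 1268 to 14906 and 217 to 260.

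The lists for pancreas and for mammary and lacrimal gland gave no such signal. The summed intensity of 20 pancreas genes was 121 to 135 in the lymphomas with Bpifa2 signal and 124 to 143 in those without, with 19 of the 20 below 4 on all 13 arrays. All 9 genes of mammary and lacrimal gland were below 4 on all 13.

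Skeletal muscle was the exception. On replicate 2 of the first set 15 of the 18 muscle genes exceeded 4, with a summed intensity of 2526, and on replicate 1 it was 5 genes and 370. Replicate 4 had 3 such genes and a sum of 167, and the other 4 arrays of the set had 0 or 1 gene and sums of 131 to 144, against 1 or 2 genes and 138 to 151 in the lymphomas without Bpifa2 signal. Acta1, the actin of skeletal muscle, had 8.46 on replicate 2 and 6.46 on replicate 1, and 2.86 to 3.22 on the other 11 lymphomas. Myh1, a fast myosin heavy chain gene, had 8.21 and 6.33 there, and Atp2a1, the calcium pump of fast muscle, 8.99 and 5.31, with 4.14 on replicate 4. Of the 18 genes, 13 exceeded 4 on arrays of the first set only, most of them on replicate 2. The share of all genes on the array that do so was not counted. Without replicates 1 and 2, the means of the first set stood at least 51.7-fold higher for Amy1, 26.1-fold for Smr3a and 17.8-fold for Dcpp3, against 39.8-fold, 19.8-fold and 13.1-fold with them. These genes are above the floor on every array of the set and lowest there on replicate 2, so leaving arrays out could not remove the gap. The part of muscle tissue in the salivary signal was not tested.

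Blood and stromal cells varied within both sets. The summed intensity of macrophage genes was 1798 to 6721 in the lymphomas with Bpifa2 signal and 1342 to 3212 in those without, with 0 of 12 tested genes passing and a median difference of 0.46. That of fibroblast and matrix genes was 902 to 5483 and 1334 to 4769, with 0 of 18 passing and a median of -0.46. T cell genes summed to 201 to 711 and 147 to 411, with 0 of 2 tested genes passing and a median of 1.20. These were Il7r, also a gene of early B cells, and Cd2, which reached 9.35 on the premalignant and wild type arrays of B220+ cells. Their median is therefore not a measure of T cells alone. Cd3d and Cd3g, which define T cells, were below 4 on all 13 arrays. Zap70, a kinase of T cell receptor signalling, exceeded 4 on replicates 13 and 6 of the first set, at 6.89 and 4.41, and Cd4 on replicate 3, at 4.28, while neither exceeded 4 on any array of the second set. Genes of lymph node and spleen stroma summed to 153 to 1429 in the lymphomas with Bpifa2 signal and 118 to 566 in those without, neutrophil genes to 192 to 4665 and 108 to 6491, and adipose genes to 272 to 1766 and 455 to 3331. Of 2, 6 and 5 tested genes of these lists 0 passed, with median differences of 1.47, -0.29 and -0.61. Endothelium gave 0 of 6 with a median of 0.06, and dendritic cells 0 of 3 with a median of 0.01. Skin, liver, erythroid cells, and platelets and mast cells had 1 tested gene each, which did not pass, and natural killer cells had 0 tested genes. The part of these cells in any difference was not tested.

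Xist, the non-coding RNA expressed from the inactive X chromosome of females, had the largest difference outside the salivary lists apart from Dnase1 and Chia1, and is described here because it was seen to move with the split. It had log2 intensities of 9.96, 11.35, 11.21, 10.07, 11.02, 10.05 and 3.37 in the lymphomas with Bpifa2 signal, against 1.73, 2.37, 1.78, 2.69, 10.79 and 11.41 in those without. It was thus high in 6 of 7 and in 2 of 6. The difference was 4.45 (95% interval 0.49 to 8.40), with a limma adjusted p of 0.771. Replicate 13, the array of the first set with low Xist, had 12.54 for Bpifa2 and was the only one of that set with signal for Eif2s3y, a gene of the Y chromosome, at 7.25. In the second set Eif2s3y exceeded 4 on replicates 8 and 10, at 7.03 and 6.73, and replicates 5 and 9 had neither transcript. The part of sex in the salivary signal was not tested.

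No difference in RNA quality was found by the 3′ and 5′ signals of beta-actin and Gapdh. With 7 and 6 arrays, a small difference could be missed. The log2 signal of the 3′ end of beta-actin exceeded that of its 5′ end by 1.86 ± 0.37 (SD, n = 7) in the lymphomas with Bpifa2 signal and by 2.00 ± 0.40 (SD, n = 6) in those without, with an exact two-sided permutation p of 0.531 for the difference of -0.14. For Gapdh the excess was 0.88 ± 0.23 (SD, n = 7) and 1.01 ± 0.28 (SD, n = 6), with an exact p of 0.399. The sources used here name neither scan dates nor extraction batches.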

How the data were processed

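The 22 arrays were Affymetrix MOE430A. The authors deposited 1 intensity per probe set and array, computed with GCRMA according to the submitters' processing notes. The method models background from probe sequence and quantile-normalises, and undetected genes pile up at low values near log2 2 to 3. The sources used here do not name its version. Here log2 was taken. Of 22690 probe sets, 64 are controls, 20380 had 1 gene symbol in the platform annotation, 691 several and 1555 none. For each gene the probe set of highest mean was used, which left 12393 genes.

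The 13 lymphomas were split by the Bpifa2 probe set at log2 4 and compared with limma 3.58.1 in R 4.3.3 (lmFit and eBayes, two-sided, statmod 1.5.0 for array weights), over the 6055 genes above log2 4 on at least 4 lymphomas, Bpifa2 left out. The threshold was a p of 0.05 after Benjamini-Hochberg adjustment over all genes. P-values measure the spread between lymphomas of different mice. A mean below log2 4 was set to 4 before a fold was taken. Single values were compared by exact permutation over samples. The fit was run on simulated data with 200 changed genes, where 4.14% of calls were unchanged genes. Whether this share holds for the measured data was not tested.

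The lists number 32, with 622 entries, 77 of them salivary. Besides those described, they cover skin, adipose tissue, liver, lymph node and spleen stroma, endothelium, natural killer cells, neutrophils, erythroid cells, dendritic cells, and platelets and mast cells. The sets, lists and members were chosen with earlier results of these data known. Named genes were the salivary genes, Myc, the 5 genes of smallest p in each direction outside the salivary lists, and the 10 genes most correlated with Bpifa2. Xist, Eif2s3y and single markers of other lists were chosen after their values were seen. A planned correlation of Amy1 and Smr3a with Bpifa2 within the 7 lymphomas is not reported as a test, since these arrays fell into 2 clusters.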

Additional observations from a re-analysis of the deposited data

Results flagged for a closer look

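In 61 sets of 6 or 7 lymphoma arrays screened, 11 held an array that stood far from the others by Dixon's ratio, which chance gives in about 1 of 20 sets. Among the lymphomas with Bpifa2 signal, replicate 6 stood apart for Scgb1b27, at a log2 intensity of 10.04 where the next array had 5.54, and for Prol1, at 5.47 where the next had 3.83. Replicate 3 stood apart for Dcpp1, at 4.69 against 3.33, and replicate 1 for Prp2, a proline-rich protein gene, at 4.45 against 3.69. Replicate 4 was low for Xbp1, at 6.97 against 7.62.

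Bhlha15, the gene of a transcription factor of acinar and plasma cells, was high on 1 array of each set, replicate 1 of the lymphomas with Bpifa2 signal at 7.41 (next 3.74) and replicate 5 of those without at 6.75 (next 4.52). Sox10 was likewise high on replicate 13 of the first set at 4.33 (next 3.59) and on replicate 8 of the second at 4.04 (next 3.49). In the second set, Car2, a carbonic anhydrase gene, had 4.76 on replicate 10 (next 2.65), and Myc had 10.76 on replicate 11 (next 9.83).

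Probe sets with no gene symbol or several were left out of the comparisons, and 5 of them exceeded log2 4 on 3 of the 7 lymphomas with Bpifa2 signal and on none of the other 15 arrays. Probe set 1416325_at had 5.55, 5.11 and 5.73 on replicates 4, 6 and 13 and at most 3.05 on the other 15 arrays. Probe set 1449570_at reached 7.28 on replicate 7, with at most 2.47 on those 15. The highest values of 1415894_at, 1431214_at and 1450200_s_at were 4.61, 4.78 and 4.38, against at most 3.25, 3.83 and 3.83.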

How the results depend on the processing

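No paired analysis was possible because each lymphoma has a replicate number of its own, so the sets share none. The 3 genes that passed became 7 with arrays centred on the hybridisation spikes, 10 with all 22 arrays in 1 fit and 8 with the Bpifa2 level entered as a number. Outside the salivary lists the count of 0 became 2, 5 and 2 in these fits, with Dnase1 and Chia1 in each of them and Peli1, Mgll and Emid1 in the second. Dnase1 and Chia1 entered the fit only through the lymphomas with Bpifa2 signal, so these calls add no support, and the cause was not tested. Without single arrays, 2 to 4 genes passed in all and 0 to 1 outside the salivary lists, namely Dnase1 without replicate 2, Chia1 without replicate 3 and Mgll without replicate 10. With no filter, with array weights or with values below log2 4 set to 4, 2 genes passed, Amy1 and Dcpp3. Smr3a kept its call in 4 of 13 fits without 1 array. Unadjusted calls outside the salivary lists numbered 125 after spike centring and 877 with array weights. Splitting by Smr3a, by Amy1 or by Bpifa2 at log2 6 moved 0 arrays. Of 333 values of 12 named genes outside the salivary lists under 28 other settings, 0 reversed and 11 came to pass. Mbp, Mgll and Ahcyl2 were not in the fit on the mean over the probe sets of a gene. The splits that moved 0 arrays repeat the main fit and add nothing. Undetected genes have only an upper bound on these arrays. The fit without replicates 1 and 2 and the Myc comparison without single arrays were chosen after seeing the data.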

Other observations

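Other genes were seen above log2 4 on lymphomas with Bpifa2 signal and on no other array. There were 27 such genes on at least 3 of the 7 arrays (0.218% of 12393), 15 of them not in the salivary lists used here. Dnase1, abundant in the parotid gland, is among these 15, so absence from the lists does not make a gene non-salivary. For the lymphomas without Bpifa2 signal, 6 of the 12393 genes were above 4 on at least 3 of the 6 arrays and on no other array. The sets differ in size, so these counts follow unlike rules and are not compared. Mup5, a gene of the major urinary proteins, which bind pheromones, had log2 intensities of 7.32, 5.22 and 4.25 on replicates 1, 4 and 7 and at most 2.52 on the other 15 arrays. Ttn, the gene of titin, the giant spring protein of muscle, had 6.84 on replicate 2, which was also highest for the muscle list, and 5.30 and 4.45 on replicates 7 and 3. Dmpk, the myotonic dystrophy protein kinase gene, followed neither the salivary nor the muscle list, with 6.03 on replicate 3, 4.87 on replicate 6, 4.82 on replicate 2 and 4.16 on replicate 7.

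Some transcripts were highest on replicates 3, 6 and 7 of the lymphomas with Bpifa2 signal, with replicate 10 of those without next or among them. Cfb, which encodes complement factor B, had 5.50, 5.25 and 5.04 on these arrays and at most 3.54 on the other 4 of the set, against 3.99 on replicate 10 and at most 3.56 on the other lymphomas without Bpifa2 signal. Tnf, the inflammatory cytokine gene, had 4.59, 4.15 and 4.07 there, and Adgrg3, a receptor gene of myeloid cells, 5.00, 4.13 and 5.51, against 3.74 and 3.43 on replicate 10. Cxcl13, a chemokine gene of B cell follicles, had 8.57, 7.57 and 8.93 on these arrays, and also 6.11 on replicate 4 and, among the lymphomas without Bpifa2 signal, 6.10 and 6.90 on replicates 8 and 10. For Bpifa2, replicate 6 was among the upper 4 arrays and replicates 3 and 7 among the lower 3. These genes were chosen after their values were seen and have no test here.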
